A study of Mus musculus with 54 samples.

Results

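Mouse embryonic stem cells that express the EZH2 variant A677T were compared with cells that express R679C, K634E or K563E after a brief treatment with all-trans retinoic acid (ATRA). The members were chosen by their labels alone: the 3 ATRA-treated A677T libraries were set against the equal-weight mean of the other 3 lines, each with 3 libraries, so that 12 of the 54 samples in the series entered, and no wild-type library did. The labels and the design text describe all of these cells as heterozygous for Ezh2 (Ezh2 fl/∆), so the background with 1 deleted allele and 1 floxed allele was shared by the A677T cells and by the cells they were set against. Each EZH2 form was expressed in such cells, and cells taken out of 2i and LIF, the inhibitors and cytokine that hold mouse embryonic stem cells in the naive state, were given ATRA. Untreated cells of the same 4 lines, labelled mESC, were used to see in which state a difference was present. The dose and duration of ATRA, the vector that carries each variant, and whether a line is 1 clone were not given in the labels. The design text names 5 Weaver variants and a growth-restriction variant without saying which line carries which.

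EZH2 is the enzyme of PRC2, Polycomb repressive complex 2. The complex methylates histone H3 at lysine 27 and keeps developmental genes silent. Variants of EZH2 in people cause Weaver syndrome, an overgrowth disorder with advanced bone age and intellectual disability. In embryonic stem cells the Hox clusters, homeobox genes and many signalling genes are covered by this mark, and retinoic acid, acting through retinoic acid receptors, opens the Hox clusters while the naive pluripotency network is shut down.

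The 12 ATRA libraries held 15787148 to 26253316 counted reads, and the deposited values were whole read counts per gene. Levels are given as CPM (counts scaled to a library total of 1e+06 reads) after TMM scaling within a state, without correction for transcript length, so they are compared between lines and not between genes. Differences are log2 fold changes of A677T minus the mean of R679C, K634E and K563E, with their standard errors. A gene was called at a Benjamini-Hochberg adjusted p under 0.05 in edgeR's quasi-likelihood test over all 15970 genes that passed the filter on low counts. Each variant is represented by 1 line, and the labels do not say that replicates are separate cultures, so these p-values measure the spread between these libraries. Taking the line as the unit, 1 line against 3 could give no permutation p below 0.25. In a principal component analysis the second component, with 18.55% of the variance, placed the A677T libraries at 25.3 to 30.8 and the other 9 at -13.9 to -1.88. K634E replicate 3 stood apart on the first component, and counts without it are given beside the results that they move most.

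The level of Ezh2 itself did not separate the lines. It was 412, 400 and 447 CPM in A677T cells, against 370 to 455 CPM in the other 9 libraries, and the log2 difference was 0.03 ± 0.06 (adjusted p = 0.827). The counts do not tell the variant transcript from that of the remaining allele.

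A677T cells differed from the other 3 lines at 1567 genes, 9.81% of those tested. Of these, 808 were higher in A677T (5.06%) and 759 were lower (4.75%), and the median log2 difference over all genes was 0.01. At an unadjusted p under 0.05 there were 3498 genes. Of the called genes, 802 of the 808 higher and 758 of the 759 lower had the same sign against R679C, K634E and K563E taken singly. They were called on the mean of these same lines, which favours that agreement. Tested singly, 175 of the higher and 284 of the lower genes passed against all 3 lines, and 65 and 35 against none. In the libraries, 576 of the higher genes and 575 of the lower genes showed no overlap between the 3 A677T values and the 9 others. Over all tested genes, the 3 A677T libraries lay above the 9 others for 770 genes (4.82%) and below them for 661 genes (4.14%). Large differences were mostly losses: 138 genes were called and at least 2-fold lower in A677T (0.864%), while 35 were at least 2-fold higher (0.219%). The lower genes were expressed at a median of 8.22 CPM in the other lines, the higher genes at 20.1 CPM and all tested genes at 14 CPM. The total depended on which A677T library was present: leaving out A677T replicate 1, 2 or 3 gave 875, 838 or 1037 calls. With the replicate number as a block, 3229 genes were called, 1877 higher (11.8%) and 1352 lower (8.47%). Correction for GC content turned the balance, with 1248 higher (7.81%) and 1502 lower (9.41%), and 1608 higher and 1913 lower together with the block.

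Set against single lines, A677T cells had 1073 called genes against R679C (6.72%), 1269 against K634E (7.95%) and 1216 against K563E (7.61%). With the replicate block these were 3169, 3836 and 3180. The same contrast was then built for each of the other lines against the mean of the remaining 3. R679C gave 56 called genes (0.351%), K634E 498 (3.12%) and K563E 191 (1.2%). The block changed that order, with 4450 calls for R679C, 3674 for K634E and 1791 for K563E, so the number of calls did not rank the lines in the same way under both fits. Counts of large changes did keep A677T first. Called genes with at least 2-fold difference numbered 173 in A677T (1.08%), 4 in R679C (0.025%), 21 in K634E (0.131%) and 11 in K563E (0.0689%). With the block they numbered 207, 54, 51 and 37 in the same order of lines. Without K634E replicate 3, over the same 15970 genes, they numbered 203, 7, 14 and 27, and the called genes of any size 1827, 264, 138 and 573. Genes whose 3 libraries did not overlap the 9 others made up 8.96% of tested genes for A677T, 4.01% for R679C, 4.68% for K634E and 2.38% for K563E. The 99th percentile of the absolute log2 difference was 0.967 in A677T, 0.645 in R679C, 0.643 in K634E and 0.655 in K563E. The median was 0.111, 0.146, 0.133 and 0.101 in the same order, and with GC correction it was 0.106, 0.0844, 0.1001 and 0.0867, so the order of the medians depended on the fit. The 4 contrasts share libraries, and the difference between them was not tested.

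**Figure D1:**
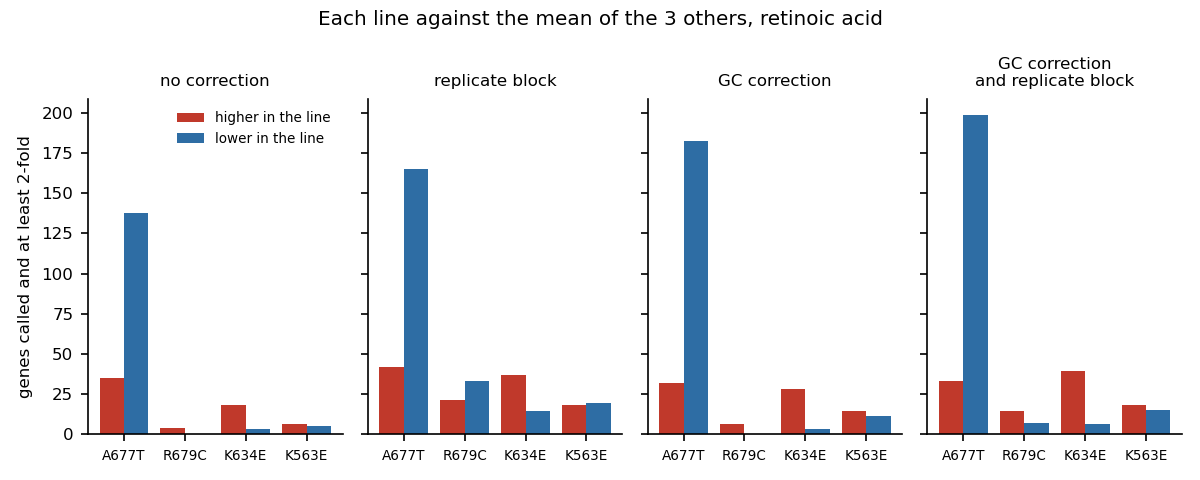
Number of genes called (adjusted p under 0.05) and at least 2-fold higher or lower in each ATRA-treated line against the mean of the 3 remaining lines, under 4 fits: no correction, replicate block, GC correction, and both. A677T has the most such genes in each fit, 173 without correction, and most of them are lower.

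The largest increase was that of Klhl13, an X-linked gene for a Kelch adaptor of a cullin-3 ubiquitin ligase. Its level was 71.3, 70.7 and 76.9 CPM in A677T cells. It was 14.1, 15.1 and 18.8 CPM in R679C, 18.3, 19.4 and 23.8 CPM in K634E, and 17.5, 19.7 and 21 CPM in K563E cells. The A677T libraries lay far above the others, with a log2 difference of 1.98 ± 0.09 (adjusted p = 4.03e-09). The gene spans chrX:23219271-23365082 on the minus strand (GRCm38). Sall1, a zinc-finger transcription factor, had 69.1, 70.4 and 65.4 CPM in A677T cells and 27 to 31.8 CPM in the others (1.22 ± 0.05, adjusted p = 4.03e-09). Esrrb, an orphan nuclear receptor of the naive pluripotency network, had 64.2, 66.1 and 62.3 CPM in A677T cells, against 32.4, 35.2 and 28.6 CPM in R679C, 27.2, 27.4 and 24.4 CPM in K634E and 24.8, 24 and 26.1 CPM in K563E. Neither gene's groups overlapped, and Esrrb differed by 1.22 ± 0.07 (adjusted p = 6.43e-08).

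Prdm1, which encodes the repressor BLIMP1 needed for primordial germ cells, had 13.9, 10.8 and 11.3 CPM in A677T cells and 4.39 to 5.99 CPM in the other 9 libraries (1.25 ± 0.11). Pdk4, a kinase that restrains pyruvate dehydrogenase, had 5.05, 5.28 and 4.27 CPM in A677T cells and 1.40 to 2.54 CPM in the others (1.43 ± 0.17). The adjacent genes Kirrel2 and Nphs1, which encode cell-adhesion proteins of the nephrin family and lie 624 bases apart on chromosome 7, were both higher. Kirrel2 had 5.54, 5.56 and 4.38 CPM in A677T cells and 1.87 to 2.94 CPM in the others (1.14 ± 0.15), and Nphs1 differed by 1.09 ± 0.13. Further genes named by size were Vwa5a (1.82 ± 0.22), Zfp951 (1.18 ± 0.23) and the fatty acid carrier Fabp3 (1.14 ± 0.11). Acp7 (1.35 ± 0.28) lost its call without A677T replicate 3 (adjusted p = 0.0797). Vpreb3 (1.10 ± 0.26) lost it without A677T replicate 1 (0.0912) or 2 (0.126), and Tgm3 (1.12 ± 0.31) lost it without any 1 of 7 libraries, those of A677T among them (up to 0.184). Among genes with the lowest p, Map7, a microtubule-associated protein, was higher by 0.71 ± 0.05, Calcoco2, an autophagy receptor, by 0.94 ± 0.08, the kinase Sgk1 by 0.66 ± 0.06, the filopodial motor Myo10 by 0.55 ± 0.05 and Actn3, an alpha-actinin, by 1.03 ± 0.09.

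The deepest decrease was that of Magel2, an imprinted gene of the Prader-Willi region. It had 0.434, 0.518 and 0.610 CPM in A677T cells, against 2.63, 3.18 and 2.45 CPM in R679C, 1.92, 2.69 and 2.71 CPM in K634E and 3.99, 3.52 and 3.93 CPM in K563E cells. The log2 difference was -2.49 ± 0.21 (adjusted p = 5.21e-06), and no library overlapped. Hoxc5 and Hoxc4 followed among better expressed genes. Hoxc5 had 1.74, 2.17 and 2.16 CPM in A677T cells and 4.88 to 8.85 CPM in the others, and Hoxc4 had 5.81, 5.89 and 4.77 CPM in A677T cells and 12.6 to 19.12 CPM in the others. The differences were -1.88 ± 0.14 and -1.50 ± 0.10 (adjusted p = 1.76e-06 and 7.38e-07). Their transcripts overlap, so the division of reads between this pair is uncertain.

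Other genes named by size fell by more than 2-fold at low levels, among them the histone gene Hist3h2ba (-1.95 ± 0.32), the transporter gene Slc35d3 (-1.86 ± 0.32), Fgfbp3, which encodes a carrier protein for fibroblast growth factors (-1.85 ± 0.19), the vitamin D receptor Vdr (-1.60 ± 0.31), Col1a2, a collagen I chain (-1.54 ± 0.24), and Prrt4 (-1.50 ± 0.26). The neurotrophin gene Bdnf (-1.64 ± 0.35) lost its call without A677T replicate 1 (adjusted p = 0.0517), Fbxo16 (-1.59 ± 0.34) without A677T replicate 2 (0.0588), Galnt9 (-1.52 ± 0.34) without A677T replicate 2 (0.0525) or 3 (0.0581), and Glis3 (-1.49 ± 0.32) without A677T replicate 1 (0.0524) or 2 (0.0529). Better expressed genes with low p-values were Ccnd2, Hmga2, Epb41 and Sp8. Ccnd2, cyclin D2, had 64.3, 57.7 and 60.0 CPM in A677T cells and 129 to 189 CPM in the others (-1.41 ± 0.08, adjusted p = 6.43e-08). Hmga2, a chromatin protein that sets body size in mice, had 15.9, 14.9 and 15.9 CPM in A677T cells and 30.0 to 54.6 CPM in the others (-1.48 ± 0.09). Epb41, a membrane skeleton protein, differed by -0.79 ± 0.06 and the limb and forebrain factor Sp8 by -1.0 ± 0.07. In all 4 genes the A677T libraries lay below every other library.

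**Figure D2:**
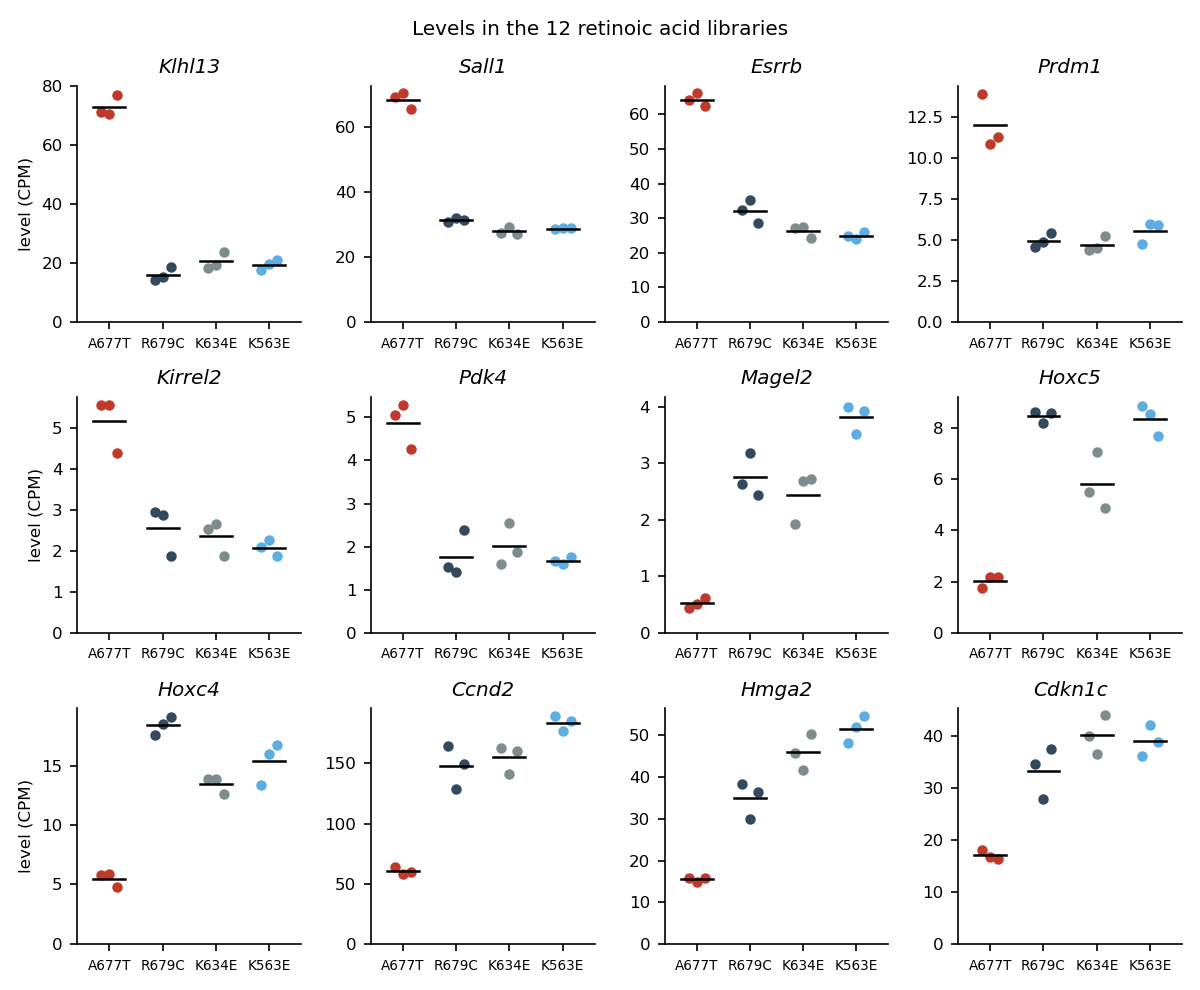
CPM of 12 genes in each ATRA-treated library, by line; points are the 3 libraries of a line and the bar is their mean. Klhl13 stands at 70.7 to 76.9 CPM in A677T cells, while Ccnd2 stands at 57.7 to 64.3 CPM there and at 129 to 189 CPM in the other lines.

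The start regions of Klhl13, Esrrb and Hoxc4 are shown because they belong to the strongest increase, to the strongest increase of a naive pluripotency gene and to a large decrease in a Hox cluster. Each sequence is the RefSeq window of GRCm38.p6 from 250 bases before to 50 bases after an annotated start, read 5′ to 3′ on the gene's strand, with CpG dinucleotides in capitals. They lie at chrX:23365033-23365332 (minus strand), chr12:86360867-86361166 (plus strand) and chr15:103034145-103034444 (plus strand).
Klhl13: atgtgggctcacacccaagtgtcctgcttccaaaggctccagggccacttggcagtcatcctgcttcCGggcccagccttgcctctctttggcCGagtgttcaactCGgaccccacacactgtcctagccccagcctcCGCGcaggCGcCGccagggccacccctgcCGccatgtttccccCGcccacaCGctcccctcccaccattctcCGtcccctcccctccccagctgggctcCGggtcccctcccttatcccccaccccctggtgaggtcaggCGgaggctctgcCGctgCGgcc
Esrrb: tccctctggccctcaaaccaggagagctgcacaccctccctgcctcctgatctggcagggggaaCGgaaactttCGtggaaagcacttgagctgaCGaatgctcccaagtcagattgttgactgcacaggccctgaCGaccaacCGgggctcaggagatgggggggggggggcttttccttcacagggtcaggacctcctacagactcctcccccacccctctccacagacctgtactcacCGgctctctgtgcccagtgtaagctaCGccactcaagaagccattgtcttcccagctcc
Hoxc4: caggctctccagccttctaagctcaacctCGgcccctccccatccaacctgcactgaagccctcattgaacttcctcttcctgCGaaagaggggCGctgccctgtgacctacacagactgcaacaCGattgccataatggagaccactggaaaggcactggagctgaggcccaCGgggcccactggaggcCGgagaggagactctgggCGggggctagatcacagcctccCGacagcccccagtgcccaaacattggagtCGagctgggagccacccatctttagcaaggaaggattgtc
The 3 windows hold 15, 7 and 9 CpG dinucleotides. For Klhl13 this was 1 of 5 listed windows and for Esrrb 1 of 2. The letters AGGTCA, the core of many nuclear receptor binding sites, searched on both strands, occur at 1 place in the Klhl13 window, at none in that of Esrrb and at 1 in that of Hoxc4, and 12.1% of the windows of tested genes hold them. The median number of CpG dinucleotides per window was 10.5 for 24 genes at least 2-fold higher in A677T and 15 for 95 genes at least 2-fold lower, against 21 for the 11142 tested genes with a window. For all called genes with a window the medians were 20 (611 higher) and 21 (548 lower). The AGGTCA letters stood in 12.27% of the windows of higher genes and in 10.22% of those of lower genes. These are descriptions of annotated starts, not of the starts used in these cells.

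Many Hox genes were lower in A677T cells. Of the 22 Hox genes tested, 13 were lower and none was higher, against 4.75% lower over all genes. In HoxA, the genes called lay toward the 3′ end, among them Hoxa2 (-0.66 ± 0.09), Hoxa3 (-0.68 ± 0.08), Hoxa4 (-0.97 ± 0.07) and Hoxa5 (-0.81 ± 0.06). These are the genes that pattern the hindbrain and neck and that retinoic acid induces first. Hoxa4 had 30.2, 34.2 and 33.3 CPM in A677T cells and 54.5 to 71.3 CPM in the others, and Hoxa5 had 86.6, 92.5 and 97.2 CPM in A677T cells and 145 to 182 CPM in the others. For all 4 of these genes the A677T libraries lay below the other 9.

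The 5′ genes of HoxA had other values. Hoxa7 differed by 0.02 ± 0.11 (adjusted p = 0.939), Hoxa9 by 0.02 ± 0.09 (0.948) and Hoxa10 by 0.09 ± 0.08 (0.589), with overlapping libraries, and Hoxa6 by -0.57 (0.245). The summed HoxA level was 352.3 to 372.5 CPM in A677T cells and 490.5 to 574.2 CPM in the other libraries. In HoxB, 5 of 9 tested genes were lower. The posterior member Hoxb9 had 11.9, 9.38 and 10.04 CPM in A677T cells and 18.2 to 23.1 CPM in the others (-1.0 ± 0.09, adjusted p = 6.6e-06). Hoxb8 differed by -0.58 ± 0.08 and Hoxb6 by -0.51 ± 0.10. Hoxb5 (-0.28 ± 0.06) lost its call without A677T replicate 1 (adjusted p = 0.0734) or 2 (0.0663), and Hoxb4 (-0.27 ± 0.07) without any 1 of 6 libraries, those of A677T among them (up to 0.155). Hoxb1, the gene that marks the fourth rhombomere, stood at 146, 152 and 122 CPM in A677T cells and 112 to 164 CPM in the others (0.10 ± 0.08, adjusted p = 0.505). Hoxb2 and Hoxb3 missed the threshold (-0.21 ± 0.09 and -0.24 ± 0.13) and passed it with the block (adjusted p = 0.0179 and 0.0492). The tested genes of HoxC were Hoxc4 and Hoxc5, given above, and in HoxD the lower gene was Hoxd1 (-0.86 ± 0.21, adjusted p = 0.0174), whose call was lost without A677T replicate 1 (0.0881) or 3 (0.104).

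**Figure D3:**
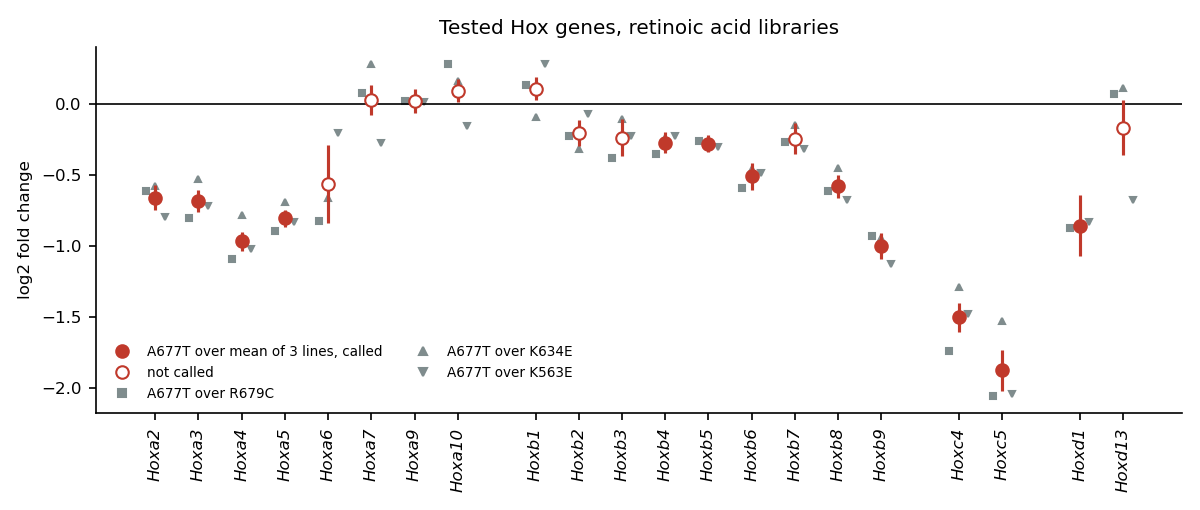
Log2 difference of A677T minus the mean of the other 3 lines for tested Hox genes, with its standard error; filled points are called genes and grey marks show A677T against each single line. The called genes shown all lie below 0, from -0.27 at Hoxb4 to -1.88 at Hoxc5.

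Factors that act with Hox proteins or regulate the clusters moved in part with them. Of 19 tested Hox cofactors and posterior regulators, 6 were lower and 1 was higher, with a median log2 difference of -0.29. With the block, 11 were lower and 2 higher. The shares over all genes were 4.75% lower and 5.06% higher, or 8.47% and 11.8% with the block. Cdx2 and Cdx4, caudal homeobox factors that activate posterior Hox genes, differed by -1.34 ± 0.16 and -1.40 ± 0.27. Cdx2 had 1.25, 1.46 and 1.497 CPM in A677T cells, 4.36 to 4.50 CPM in R679C, 1.92 to 2.71 CPM in K634E and 4.10 to 4.98 CPM in K563E, so K634E stood between. Among TALE homeobox cofactors, Pknox2 differed by -0.68 ± 0.10, Meis2 by -0.37 and Meis1 by 0.31, while Meis3 (-1.03 ± 0.24) lost its call without A677T replicate 2 (adjusted p = 0.0996). Cdx1, a direct retinoic acid target, stood at -0.22 ± 0.11 (adjusted p = 0.261), and at 0.0109 with the block.

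The genes that carry, sense, degrade or answer retinoic acid came next. Of 29 tested, 7 were lower and 2 higher, with a median of -0.15, and 4 were lower without A677T replicate 3. With the block 13 were lower and 4 higher, and with GC correction 14 and 3. Over all genes 4.75% were lower and 5.06% higher. The block gave 8.47% and 11.8% over all genes, and GC correction 9.41% and 7.81%. The lower genes include Crabp2, the protein that delivers retinoic acid to its receptor, with 16.7, 17.8 and 16.2 CPM in A677T cells and 19.8 to 42.8 CPM in the others (-1.10 ± 0.12). Zfp703 (-0.76 ± 0.09), Tshz1 (-0.58 ± 0.09) and Stra8, a meiotic gene that retinoic acid induces (-0.42 ± 0.06), were also lower. The calls of Rxrg (-0.61 ± 0.17) and Rbp4 (-0.68 ± 0.20) were lost without any 1 of 4 and 10 libraries, A677T replicates 2 and 3 among them (adjusted p up to 0.148 and 0.203). Cyp26a1, the enzyme that degrades retinoic acid and a standard readout of receptor activity, had 347, 347 and 313 CPM in A677T cells and 290 to 378 CPM in the others (0.02 ± 0.08, adjusted p = 0.926). The receptor gene Rarg had 231, 254 and 210 CPM in A677T cells and 142 to 227 CPM in the others, at 0.20 ± 0.09 (adjusted p = 0.197, and 0.00634 with the block).

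Naive pluripotency genes were higher in ATRA-treated A677T cells. Of 28 tested, 14 were higher and 1, Manba, was lower (-0.35), with a median log2 difference of 0.31; over all genes 5.06% were higher. The block gave 18 higher and 2 lower, against 11.8% and 8.47% of all genes, and leaving out A677T replicate 2 left 8 higher. After Esrrb, the leading members were Nr5a2 (0.90 ± 0.12), an orphan receptor that can stand in for Oct4 in reprogramming, Spp1 (0.76 ± 0.11) and Tfcp2l1 (0.57 ± 0.07), a factor downstream of LIF. Tfcp2l1 had 28.4, 31.4 and 29.8 CPM in A677T cells and 17.7 to 21.7 CPM in the others. Nr5a2 had 7.93, 6.13 and 6.27 CPM in A677T cells and 2.84 to 4.86 CPM in the others. The LIF receptor Lifr was higher by 0.54, the Krüppel-like factors Klf5 and Klf2 by 0.34 and 0.35, Fbxo15 by 0.48 and Tdh by 0.56. These genes were named after their values were seen, and their calls were not followed singly through the fits without 1 library. Klf4 (0.47 ± 0.10) and the LIF feedback gene Socs3 (0.58 ± 0.12) lost their calls without A677T replicate 2 (adjusted p = 0.0868 and 0.051). Tbx3 (0.23 ± 0.07) lost its call without any 1 of 7 libraries, those of A677T among them (adjusted p up to 0.144). Tbx3 also lost it with K634E left out of the mean (adjusted p = 0.502).

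Not all naive genes took part. Nanog had 46.1, 45.1 and 38.9 CPM in A677T cells and 34.3 to 43.8 CPM in the others (0.20 ± 0.07, adjusted p = 0.11, and 0.0202 with the block). Zfp42 stood at 0.15 ± 0.07 (0.19), Dppa2 at 0.02 ± 0.10 (0.95) and Zfp57 at 0.04 ± 0.06 (0.752). The general pluripotency factors Pou5f1 (0.11 ± 0.08, adjusted p = 0.441) and Sox2 (0.12 ± 0.06, 0.315) did not pass. Pou5f1 had 371, 407 and 342 CPM in A677T cells and 260 to 397 CPM in the others, so this defining marker of the labelled cell type was present in every library. Core pluripotency genes are read against 5.06% higher and 4.75% lower over all genes, or 11.8% and 8.47% with the block. Of 14 such genes 3 were higher (5 with the block), Mycn (0.39 ± 0.08) and Sall4 (0.21 ± 0.05) among them, and Tdgf1 was lower (-0.20 ± 0.05). Each of these 3 named calls was lost without A677T replicate 1 (adjusted p = 0.0643, 0.0744 and 0.0547). That of Sall4 was also lost without A677T replicate 2 (0.0569), and that of Tdgf1 without A677T replicate 2 (0.0905) or 3 (0.0507). With K634E left out of the mean, Sall4 (0.0516) and Tdgf1 (0.0969) lost their calls too. In bulk libraries, more cells that remain naive and more naive RNA in each cell cannot be told apart, and the same holds for every gene group here.

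**Figure D4:**
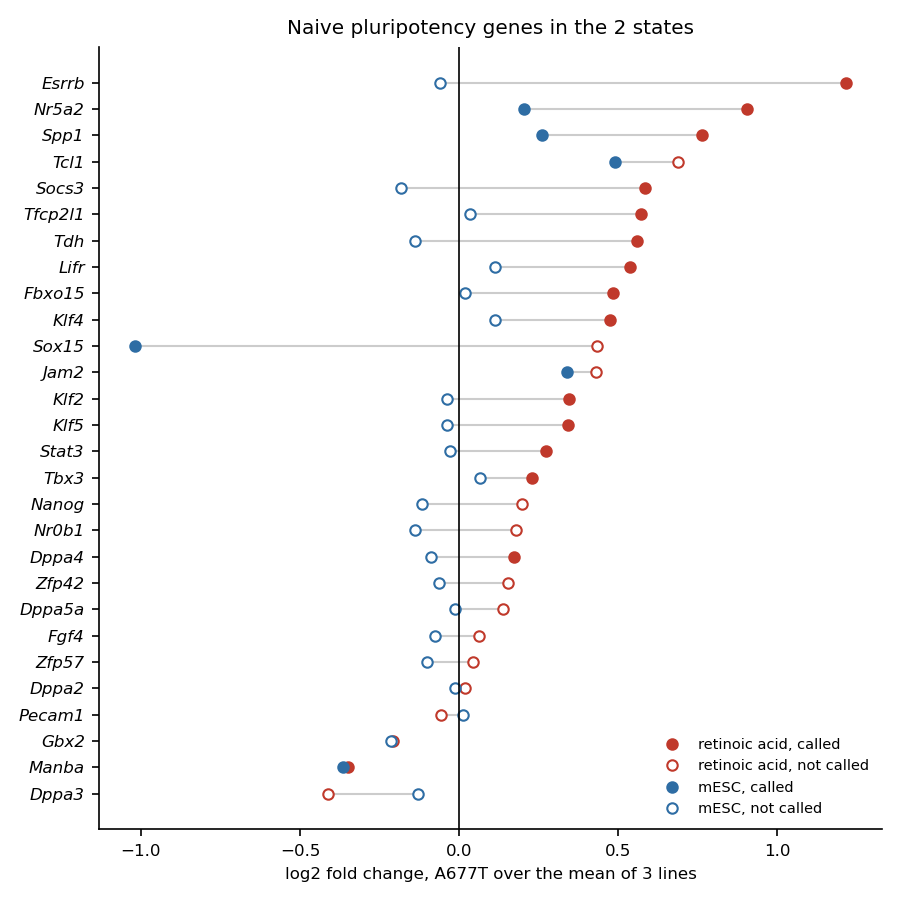
Log2 difference of A677T minus the mean of the other 3 lines for 28 naive pluripotency genes after ATRA and in untreated mESC. After ATRA 14 are called higher and the median is 0.31; in mESC 4 are called higher and the median is -0.04.

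Primed epiblast genes, which mark the next stage of the embryo, were split, with 3 of 22 higher and 4 lower (6 and 6 with the block). This and the next list are read against 5.06% higher and 4.75% lower over all genes, or 11.8% and 8.47% with the block. Dnmt3a, a de novo DNA methyltransferase, had 744, 755 and 700 CPM in A677T cells and 510 to 645 CPM in the others (0.32 ± 0.05). Sall2 (-0.33 ± 0.06) and Cdh2, N-cadherin (-0.46 ± 0.08), were lower. Among 20 genes of DNA methylation and its removal, 5 were higher and 1 lower, with a median of 0.05. The higher ones besides Dnmt3a were Dnmt3l, the cofactor of the de novo enzymes (0.41 ± 0.06), Gadd45a (0.69 ± 0.06), Mbd1 (0.41 ± 0.06) and the methylcytosine oxidase Tet1 (0.41 ± 0.09, lost without A677T replicate 3 at adjusted p = 0.0701). Dnmt3l had 624, 649 and 606 CPM in A677T cells and 375 to 541 CPM in the others, without overlap. The oxidase Tet3 was the lower gene (-0.31), and 1 lower of 20 (5%) was near the share over all genes. Dnmt1 and Uhrf1, which copy methylation at replication, stood at 0.05 ± 0.06 each (adjusted p = 0.716 and 0.699).

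Genes of the Polycomb machinery are read against 5.06% higher and 4.75% lower over all genes, or 11.8% and 8.47% with the block. Among 6 core PRC2 genes the called one was Ezh1, the EZH2 paralog, with 26.9, 25.6 and 27.9 CPM in A677T cells and 20.8 to 25.9 CPM in the others (0.23 ± 0.06, adjusted p = 0.0389). That call was lost without any 1 of 8 libraries, those of A677T among them (up to 0.174), and with DESeq2 size factors (adjusted p = 0.0552). Eed (0.05 ± 0.07), Suz12 (-0.10 ± 0.13), Rbbp4 (-0.02 ± 0.06) and Rbbp7 (-0.02 ± 0.06) did not pass. Of 10 accessory PRC2 genes none was lower (1 with the block) and Jarid2 was higher (0.19 ± 0.05). Jarid2 lost its call without A677T replicate 1 (adjusted p = 0.117) or 3 (0.0797), and with K634E left out of the mean (0.105). Among 25 PRC1 genes 4 were lower and Phc1, a canonical PRC1 subunit, was higher (0.29 ± 0.05); 7 were lower and 4 higher with the block, and 8 were lower with GC correction (32%, against 9.41% of all genes). The lower ones were Bcorl1 (-0.82 ± 0.13), Yaf2 (-0.50 ± 0.09), Cbx2 (-0.44 ± 0.07) and Bcor (-0.43 ± 0.07). Cbx2 reads the PRC2 mark, and the other 3 belong to variant PRC1. Bcor had 44.1, 43.0 and 44.4 CPM in A677T cells and 52.8 to 65.9 CPM in the others. Of 14 genes that remove or oppose the mark none was higher (2 with the block) and Nsd2 was lower (-0.20 ± 0.05), a call lost without A677T replicate 1 (adjusted p = 0.11) or 2 (0.119).

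Homeobox and paired-box genes outside the Hox clusters include many further PRC2 targets. Of 48 tested, 14 were lower and 2 higher, with a median of -0.35, against 4.75% lower and a median of 0.01 over all genes. Without A677T replicate 2, 9 were lower. En2, a midbrain and hindbrain factor, had 6.57, 6.79 and 6.6 CPM in A677T cells and 10.2 to 16.5 CPM in the others (-0.99 ± 0.09). Pax6, the eye and neural tube regulator, had 14.4, 13.5 and 13.9 CPM in A677T cells and 20.4 to 28.8 CPM in the others (-0.84 ± 0.07). Msx1, a factor of the neural plate border and limb, had 27.2, 27.9 and 24.5 CPM in A677T cells and 37.0 to 51.3 CPM in the others (-0.77 ± 0.07). None of these 3 overlapped. Gsx1 (-0.66), Lhx6 (-0.64) and Irx2 (-0.76) were also lower, and Six4 (0.54) was among the higher genes.

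Counts of neural genes are read against 5.06% higher and 4.75% lower over all genes, or 11.8% and 8.47% with the block. Of 19 tested neural progenitor markers, 4 were lower, which were En2, Pax6, Nes, an intermediate filament (-0.65 ± 0.11), and Sox1, the earliest neuroectoderm factor (-0.38 ± 0.07). The median was -0.35, and 7 were lower and 2 higher with the block. Sox1 had 84.8, 86.0 and 83.5 CPM in A677T cells and 88.3 to 134 CPM in the others. Sox3 stood at 0.15 ± 0.07 (adjusted p = 0.198, and 0.0154 with the block) and Zic2 at -0.09 ± 0.06 (0.434), so the neural markers did not move together. Of 17 neuron markers 3 were lower, the neurofilament genes Nefh (-0.48 ± 0.08) and Ina (-0.28 ± 0.06) and Cntn2 (-0.93 ± 0.22), and Gap43 was higher (0.29 ± 0.06); the block gave 3 higher. Cntn2 lost its call without A677T replicate 1 (adjusted p = 0.105) or 2 (0.0624), and Gap43 without A677T replicate 1 (0.0537). Gap43 also lost it with K634E left out of the mean (adjusted p = 0.226). Tubb3, the general neuronal tubulin, stood at -0.05 ± 0.11 (0.866). Among 16 neural crest genes, 5 were lower and 1 was higher, with a median of -0.40; the lower count was 3 without A677T replicate 1, 2 or 3. Msx1 and Ets1 (-0.66 ± 0.10) kept their calls without any 1 library.

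Markers of the other lineages that a differentiating culture can hold were mixed. Their counts are read against 5.06% higher and 4.75% lower over all genes, or 11.8% and 8.47% with the block. Among 16 mesoderm genes 3 were higher and 1 lower (4 and 3 with the block). Bmp4 had 6.08, 6.08 and 5.93 CPM in A677T cells and 2.33 to 3.93 CPM in the others (0.97 ± 0.13). Eomes, a factor of the primitive streak, differed by 0.64 ± 0.10, and Pdgfra, a mesoderm and primitive endoderm receptor, by 0.38 ± 0.08. Of 14 endoderm transcription factors 3 were higher, including Gata6 (0.40 ± 0.07), and 1 was lower (4 and 5 with the block). Their summed level was 133.7 to 140.7 CPM in A677T cells and 112.7 to 138.1 CPM in the others. Genes of extraembryonic endoderm matrix and secretion went the other way, with 6 of 23 lower, led by Pth1r (-0.86 ± 0.14) and Col4a1 (-0.72 ± 0.11), and 1 higher. The block gave 9 lower and 5 higher, and 3 were lower without A677T replicate 2 or 3, R679C replicate 1 or K634E replicate 1. Their summed level, 2009 to 2207 CPM in A677T cells and 1762 to 2272 CPM in the others, overlapped.

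Of 25 blood and endothelium genes 4 were higher and 1 lower (6 and 5 with the block, and 2 each without K634E replicate 3), with Tek, an angiopoietin receptor, higher by 0.47 ± 0.09. Among 24 trophoblast and epithelium genes 4 were higher and 4 lower: Grhl3 (0.71 ± 0.10) and Eomes rose, while Perp (-0.80 ± 0.08) and Cdx2 fell. Among 12 fibroblast genes 2 were higher and 3 lower, with the collagen genes Col1a1 (-1.46 ± 0.30) and Col5a1 (-1.23 ± 0.21) lower. The summed fibroblast level was 1312 to 1375 CPM in A677T cells and 1113 to 1365 CPM in the others. Col1a1 itself was near 0, at 0.434, 1.13 and 0.499 CPM in A677T cells and 1.44 to 2.64 CPM in the others. Of 9 genes of the 2-cell-like state, 2 were lower, at levels under 2 CPM and with near-identical copies that make their counts uncertain. Of 33 germline genes 4 were lower and 2 higher (6 and 4 with the block), with Prdm1 among the higher and Sycp2 (-1.06 ± 0.18) among the lower. What these other cell types contribute to the differences above was not tested.

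Genes of growth control followed, read against 5.06% higher and 4.75% lower over all genes, or 11.8% and 8.47% with the block. Of 44 imprinted genes tested, 12 were lower and 2 higher (13 and 4 with the block), with a median of -0.12. Magel2 has 3 tested neighbours, and all 4 genes of this stretch, chr7:62346569-62464510 from Ndn to Peg12, were lower. Ndn, necdin, had 8.47, 8.53 and 7.16 CPM in A677T cells and 14.4 to 19.2 CPM in the others (-1.08 ± 0.09). Mkrn3 differed by -0.87 ± 0.15 and Peg12 by -1.18 ± 0.19. Snrpn, which lies outside this stretch on the same chromosome and is also expressed from the paternal allele, had 45.7, 46.4 and 42.8 CPM in A677T cells and 38.9 to 50.2 CPM in the others (-0.01 ± 0.06, adjusted p = 0.946).

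Other imprinted genes that were lower include maternally expressed growth inhibitors. Cdkn1c, a cyclin-dependent kinase inhibitor whose loss causes overgrowth, had 18.1, 16.8 and 16.3 CPM in A677T cells. It had 34.6, 27.9 and 37.4 CPM in R679C, 40.0, 36.4 and 44.0 CPM in K634E, and 36.1, 42.1 and 38.9 CPM in K563E cells. The libraries did not overlap, and the difference was -1.13 ± 0.10 (adjusted p = 6.02e-06). Its neighbour Phlda2, which restrains placental growth, had 18.2, 19.98 and 19.13 CPM in A677T cells and 33.6 to 45.1 CPM in the others (-1.02 ± 0.09). Grb10, an adaptor that restrains insulin signalling, had 230, 216 and 235 CPM in A677T cells and 305 to 412 CPM in the others (-0.68 ± 0.05). Among paternally expressed genes, Dlk1 differed by -0.74 ± 0.10, Mest by -0.40 ± 0.05 and Rtl1 by -1.85 ± 0.36. Rtl1 was at levels under 1 CPM and lost its call in replicates 1 and 2 alone (adjusted p = 0.0538). Peg10, also paternally expressed, at 1789, 1768 and 1907 CPM in A677T cells and 1782 to 2223 CPM in the others, stood at -0.04 ± 0.06 (adjusted p = 0.772).

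The next lists are read against the same shares, 5.06% higher and 4.75% lower over all genes (11.8% and 8.47% with the block). Among 19 insulin-like growth factor genes 4 were lower and 2 higher. Igf2bp2, an RNA-binding protein that acts with HMGA2, had 16.2, 17.5 and 17.1 CPM in A677T cells and 29.1 to 40.5 CPM in the others (-1.0 ± 0.08), whereas Igf2bp1 (-0.02 ± 0.05) and Igf2bp3 (0.04 ± 0.06) did not pass. Igfbp3 was higher (0.52 ± 0.07). In the list of cyclins and cell cycle inhibitors, 4 of 34 were lower and 1 higher (4 and 3 with the block). The lower ones were Ccnd2, Cdkn1c, Cdkn2a and Cdkn1a. Cdkn2a, the INK4A and ARF locus and a classic PRC2 target, had 8.53, 10.5 and 7.99 CPM in A677T cells and 12.1 to 29.1 CPM in the others (-1.12 ± 0.13), and Cdkn1a, p21, differed by -0.38 ± 0.06. The replication and mitosis genes Mcm2, Mcm5 and Top2a stood at 0.01 ± 0.06, 0.08 ± 0.06 and -0.06 ± 0.07. Of 26 genes of human overgrowth syndromes, 2 were lower (7.69%), Ccnd2 and Cdkn1c, and Dnmt3a was higher (3.85%; 2 higher with the block). These shares were near those over all genes. Of 25 skeletal growth genes 5 were higher and 3 lower (5 and 5 with the block, 5 and 6 without K634E replicate 3): the Hedgehog effectors Gli1 (0.59 ± 0.09) and Gli2 (0.47 ± 0.07) were higher and the parathyroid hormone receptor Pth1r was lower.

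Signalling genes moved in both directions. Their counts are read against 5.06% higher and 4.75% lower over all genes, or 11.8% and 8.47% with the block. In the TGF-beta, Nodal and BMP list 7 of 25 were lower and 1, Bmp4, was higher (10 and 4 with the block), with 4 lower without A677T replicate 1 and 3 without A677T replicate 3. Id2, a BMP target, had 47.7, 47.1 and 55.2 CPM in A677T cells and 63.4 to 101 CPM in the others (-0.58 ± 0.08). In the Notch and Hedgehog list 3 of 22 were higher and 3 lower (5 and 8 with the block, 3 and 5 without K634E replicate 3). GC correction gave 3 higher and 10 lower there, against 7.81% and 9.41% of all genes. The Hedgehog transducer Smo had 61.4, 67.4 and 51.4 CPM in A677T cells and 86.2 to 116 CPM in the others (-0.75 ± 0.09), and the Hedgehog-binding Hhip differed by -0.64 ± 0.07, while Gli1 and Gli2 were higher. The Notch ligand Jag1 was lower (-0.62 ± 0.09). Among 29 WNT genes 4 were lower and 1 higher (7 and 5 with the block, 7 and 2 without K634E replicate 3): the receptor Ror1 was lower (-0.91 ± 0.15) and the secreted WNT inhibitor Notum higher (0.90 ± 0.15). Of 29 genes of FGF signalling and ERK response 5 were higher and 4 lower, and the feedback gene Spred2 stood at -0.05 ± 0.05 (adjusted p = 0.568).

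Among 25 cadherin and mesenchymal transition genes 7 were lower and 2 higher (9 and 4 with the block), and 4 were lower without A677T replicate 2. Cdh6 differed by -1.28 ± 0.13, the splicing factor Esrp1 by -0.79 ± 0.10 and the repressor Zeb2 by -0.57 ± 0.07. Cdh1, E-cadherin, stood at -0.03 ± 0.05 (adjusted p = 0.802). Of 21 clustered protocadherins 4 were lower, and 2 without A677T replicate 1, 2 or 3. Their constant exons are shared, so counts of single members are uncertain. Of 23 forkhead and T-box genes 3 were higher and 2 lower (4 and 5 with the block), with Foxn4 lower (-0.92 ± 0.15).

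Counts for stress and metabolism depended on the fit. In the integrated stress response list 1 of 30 was lower and none higher (3 and 3 with the block), in hypoxia and glycolysis 1 of 33 was higher and none lower (5 and 6 with the block), and in cholesterol synthesis 1 of 26 was higher and none lower (3 and 2 with the block). The block called 11.8% of all genes higher and 8.47% lower. The stress list, at 10% and 10%, and cholesterol synthesis, at 11.5% and 7.69%, were near those shares. Hypoxia and glycolysis stood at 15.2% and 18.2%. With GC correction and the block, 7 of 30, 12 of 33 and 8 of 26 were lower in these lists (23.3%, 36.4% and 30.8%), against 12% of all genes. Without K634E replicate 3 there were 1 higher and 2 lower in the stress list and 2 and 2 in hypoxia and glycolysis. The hypoxia gene called was Pdk1, with 230, 231 and 230 CPM in A677T cells and 174 to 225 CPM in the others (0.29 ± 0.05). No mitochondrially encoded gene of 12 was called, and 2 were lower with the block. Of 26 p53 targets 6 were lower and 2 higher, with Perp and Cdkn1a leading. With the block 11 were lower and 4 higher, and without A677T replicate 1 there were 3 lower. GC correction gave 11 lower and 3 higher, against 9.41% and 7.81% of all genes. Trp53 itself stood at 0.06 ± 0.05 (adjusted p = 0.554). In the interferon list 5 of 19 were higher and 4 lower. Ifitm1 (0.92 ± 0.18) and Ifitm3 (0.59 ± 0.08) rose and the class I antigen gene H2-D1 (-0.72 ± 0.14) fell. The higher count was 2 without A677T replicate 1 or 2, and members of these families share sequence.

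**Figure D5:**
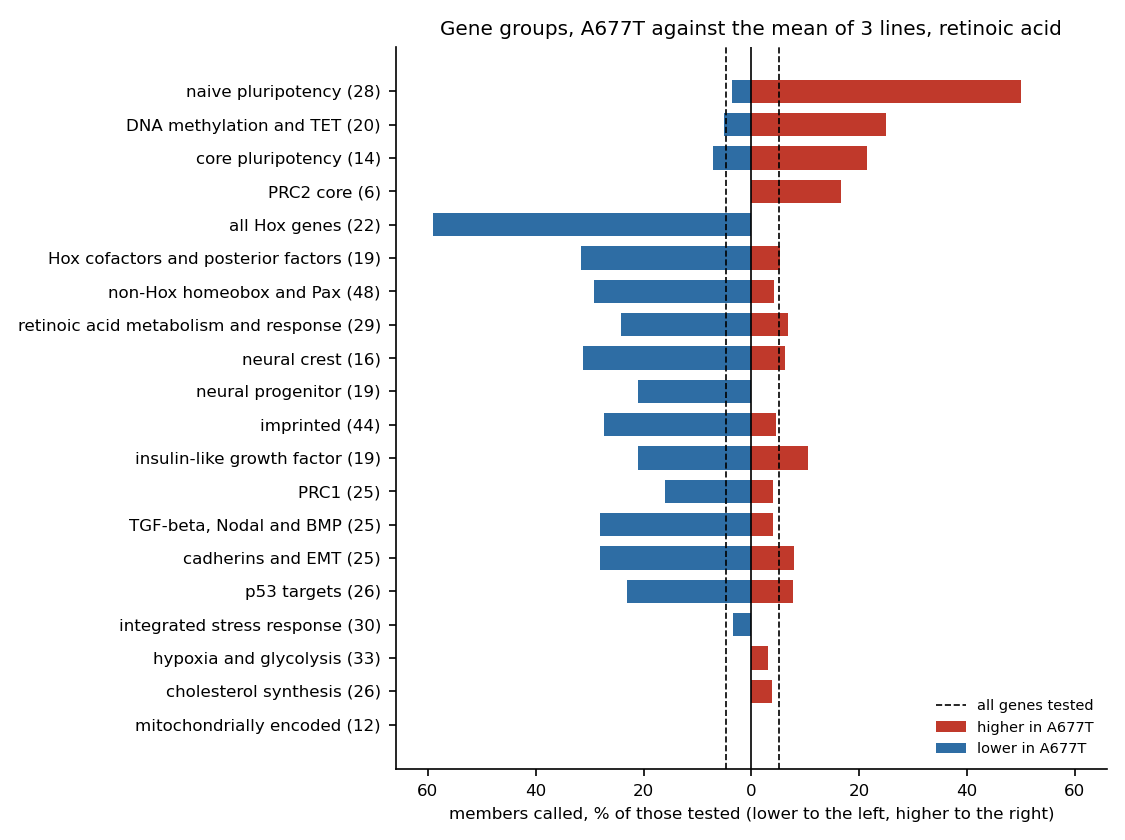
Percentage of tested genes called lower (left) and higher (right) in ATRA-treated A677T cells for 20 gene groups; dashed lines give all genes tested, 4.75% lower and 5.06% higher. Hox, cofactor and homeobox groups extend to the left and the naive pluripotency group to the right.

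The same contrast was made in untreated cells, where it uses other libraries. In mESC, 1502 of 14712 genes were called (10.2%), 784 higher (5.33%) and 718 lower (4.88%). The mESC A677T replicate 3 library stood apart from its replicates on the first component, and without it 1312 genes were called. Without A677T replicate 1 the number was 819. Of the 808 genes higher after ATRA, 257 were also called higher in mESC, which is 31.8% of the ATRA list and 32.8% of the mESC list. Of the 759 lower genes, 247 were also called lower, 32.5% and 34.4% of the lists. Opposite calls were found for 23 of the higher genes and 4 of the lower. Without mESC A677T replicate 3 the shared genes numbered 284 and 214 and the opposite ones 17 and 2. With GC correction the shared genes numbered 493 and 509 and the opposite ones 51 and 21. The Spearman correlation of the log2 difference with gene GC content was 0.14 after ATRA and -0.34 in mESC. What GC content contributes to the overlap was not tested. Over 13140 genes of at least 1 CPM, the log2 differences in the 2 states had a Pearson correlation of 0.504 and a Spearman correlation of 0.362 across genes, which are not independent. Klhl13 (1.93), Magel2 (-2.51), Hmga2 (-1.43), Igf2bp2 (-0.98), Grb10 (-0.77), Phlda2 (-1.46) and Ccnd2 (-2.0) kept their direction and their call in mESC, with the log2 difference there in parentheses. Ccnd2 was at 6.46, 6.46 and 4.74 CPM in untreated A677T cells and 16.8 to 33.1 CPM in the other untreated lines.

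Whether a difference depended on the state was tested in 1 model over the 24 libraries of both states, as the ATRA difference minus the mESC difference. It passed at 321 of 16553 genes (1.94%), 209 with a higher value after ATRA (1.26%) and 112 with a lower one (0.677%). The count was 704 with the block and 218 without mESC A677T replicate 3 over the same genes. It was 167 without ATRA A677T replicate 2, 183 without ATRA A677T replicate 1 and 195 without mESC A677T replicate 1. Esrrb gave the lowest adjusted p. Its level was 855, 934 and 739 CPM in untreated A677T cells and 826 to 932 CPM in the other untreated lines, and its interaction was 1.265 on the log2 scale (adjusted p = 1.66e-08). Of the 28 naive genes, 9 passed this test with a higher value after ATRA and none with a lower one; 16 passed with the block and 9 without mESC A677T replicate 3. In mESC itself 4 naive genes were called higher and 2 lower. Dnmt3l was at 0.41 after ATRA, against -0.22 in mESC (adjusted p = 0.0621), and its interaction was 0.62. For Kirrel2 and Nphs1 the mESC differences were -0.68 and -0.37, both called, opposite to those after ATRA. Most Hox genes were too low in mESC to be tested, so the group could not be compared between the states. In hypoxia and glycolysis none of 33 genes was lower after ATRA, against 12 of 32 in mESC, and 3 interactions passed. Over all genes 4.75% were lower after ATRA and 4.88% in mESC. The list counts depended on the fit. With the block 6 were lower after ATRA and 16 in mESC, and with GC correction and the block 12 and 20. Without mESC A677T replicate 3 the mESC count was 8.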

How the data were processed

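RNA from mouse embryonic stem cells was sequenced as poly(A)-selected libraries with random-hexamer cDNA, per the labels' protocols. The authors deposited 1 table of whole-number read counts per gene for the series; per the submitters' processing notes the tools were featureCounts 1.6.4, STAR 2.7.3a, cutadapt 3.2 and, with no stated role, DESeq2 1.38.3, on mm10. No source used here gives the strand setting. Of 55401 identifiers, 55141 were found in GENCODE M21 (GRCm38) for names and positions. Columns were matched to samples by name; 6 columns match no label and were not used, and 12 ATRA and 12 mESC libraries entered.

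Counts were filtered with filterByExpr, scaled by TMM and tested with edgeR 4.0.16 (robust quasi-likelihood fit, 1 mean per line, R 4.3.3), with Benjamini-Hochberg adjustment over all genes tested. The 12 ATRA libraries left 8 residual degrees of freedom. On simulated counts for 15970 genes the ATRA contrast recovered 80% of genes changed 1.5-fold and 94% of those changed 2-fold, with 5 unchanged genes called. The simulation changed 100 genes of at least 1 CPM per fold size and drew each library independently. It held no GC trend, no correlation between same-numbered libraries and no differences among the other lines. These rates need not carry over to the real libraries. Alternatives were DESeq2 1.42.0 (size factors, Wald test), limma-voom 3.58.1, no filter, a GC trend correction per library, a replicate block, leaving out each library or line, and replicates 1 and 2 alone, the last chosen after seeing the data. Deviations of same-numbered ATRA libraries from their line means correlated at 0.118 to 0.682 in 18 of 18 pairs, so blocked values stand beside results they change. Of 36 differently numbered pairs 10 correlated above 0.1 (up to 0.44), with a median of -0.364. Because deviations are taken from each line's own mean, positive values in same-numbered pairs push the other values down. That negative median is therefore no separate evidence of pairing.

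Genes named had adjusted p under 0.05, at least 1 CPM and no overlap between libraries: in each direction the 14 largest and the 5 lowest p. Under the same filters, the 5 with the lowest interaction p in each direction were named among genes that passed that test. Per gene list, up to 5 called members and 3 others of high level were named. Nanog, Zfp42, Klf4, Pou5f1, Sox2, Mkrn3, Snrpn, Phlda2, Dlk1, Manba, Lifr, Klf2, Klf5, Fbxo15, Tdh, Meis1, Meis2, Tet3, Gsx1, Lhx6, Irx2 and Six4 were named after their values were seen. The members and the 44 lists were chosen with earlier results of these data known. Some genes covered by these rules are not reported here.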

Additional observations from a re-analysis of the deposited data

Results flagged for a closer look

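For 43 of the 181 named genes called after ATRA, the A677T difference differed from that in mESC by edgeR's interaction test over 24 libraries (adjusted p under 0.05). Up to 5 genes in each direction had been named for a low p in this test, so the count is not independent of it. All 181 had also been called after ATRA, and that difference is part of the interaction, which favours such genes. Of the 808 genes called higher after ATRA 134 passed the interaction test, and of the 759 called lower 48 did. Over all genes the test passed at 321 of 16553 (1.94%). Values are interactions on the log2 scale, the ATRA difference minus the mESC difference.

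Among genes higher in A677T after ATRA, the adjacent Kirrel2 (1.81) and Nphs1 (1.45) had the widest gap between states. They were followed by the germ cell factor Prdm1 (1.42), the endothelial factor Etv2 (1.34), the pluripotency factor Esrrb (1.265), Tgm3 (1.10), the WNT inhibitor Notum (1.09), Vpreb3 (1.08), Zfp819 (1.06) and Vwa5a (1.0). The pluripotency genes Socs3 (0.76), Nr5a2 (0.69), Tfcp2l1 (0.53) and Spp1 (0.49) and the DNA methylation genes Dnmt3l (0.62) and Gadd45a (0.59) were of this kind. So were the signalling and lineage genes Bmp4 (0.71), Eomes (0.69), Fgf10 (0.67), Etv4 (0.67) and Grhl3 (0.65), and Ifitm1 (0.81), Sgk1 (0.78), Pml (0.74), Pdk1 (0.60), Sall1 (0.59), Map7 (0.55), Myo10 (0.49) and Phc1 (0.43). After ATRA, Etv2 and Fgf10 lost their calls without A677T replicate 1 (adjusted p = 0.0925 and 0.0642) and Etv4 without A677T replicate 2 (0.2). With K634E left out of the mean, Etv2 (0.125) and Etv4 (0.0595) lost their calls too. Etv2, Zfp819, Pml, Pdk1, Kirrel2 and Nphs1 were called lower in mESC, Etv2 no longer so without mESC A677T replicate 3 (adjusted p = 0.131).

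Ccnd2 (0.57) and Epb41 (0.44) were called lower in both states, by less after ATRA. Genes lower in A677T after ATRA with a more negative difference than in mESC were Tgfb1i1 (-1.98), Fgfbp3 (-1.66), Cdh6 (-1.19), Ror1 (-1.11), Id2 (-1.09), Stra8 (-1.04), Hoxb9 (-0.98), Nt5e (-0.94), Sox1 (-0.55), Mest (-0.55), Susd6 (-0.51) and Nsd2 (-0.28). Of these, Tgfb1i1 and Id2 were called higher in mESC, and neither was without mESC A677T replicate 3 (adjusted p = 0.146 and 0.211).

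With the replicate block all 43 passed. Without mESC A677T replicate 3, 34 passed, and Tgm3, Vpreb3, Fgfbp3, Ccnd2, Nsd2, Sox1, Grhl3, Stra8 and Etv4 did not. The sign was the same in all 43 under both fits.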

How the results depend on the processing

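The number of calls depended on the fit more than the direction of the named genes did. Of 181 named genes past the threshold after ATRA, none changed sign under any alternative run. In all 12 fits without 1 library 114 passed, and 67 missed in at least 1. With R679C, K634E or K563E left out of the mean, 13, 23 and 18 of the 181 lost their calls. The total calls were then 1620, 1481 and 1278. Manba, Lifr, Klf2, Klf5, Fbxo15, Tdh, Meis1, Meis2, Tet3, Gsx1, Lhx6, Irx2 and Six4 are not among these 181. Depth limits genes near 1 CPM.

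For A677T against the mean of the 3 lines, calls numbered 3229 with the replicate block, 2750 with GC correction and 3521 with both, and 838 to 1890 without 1 library. Against R679C they numbered 3169 with the block, 1973 with GC correction, 2782 with both, 2054 in replicates 1 and 2 alone and 1715 with the spread taken from 21 ATRA libraries, and 463 to 1626 without 1 library. Against K634E the same settings gave 3836, 2174 (38.4% higher, against 51.5% without correction), 3151 and, with 21 libraries, 1964; without 1 library 640 to 1259. Against K563E they gave 3180, 2408, 3323, 2071 and 1885, and 637 to 1738 without 1 library.

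R679C against the remaining 3 lines gave 670 with DESeq2, 1333 with no filter, 4450 with the block, 301 with GC correction, 1232 with both, 2675 in replicates 1 and 2, 109 with limma-voom and 1471 with 21 libraries, and 6 to 244 without 1 library. K634E gave 983, 1208, 3674, 1241, 2246 and 1080 under the first 6 of these and 1387 with 21 libraries, and 125 to 550 without 1 library; the share higher was 38.2%, but 53.7% with DESeq2 size factors and 57.9% with GC correction. K563E gave 401, 429, 1791, 848, 1623, 1212 and 567 under the same 7 settings, and 25 to 574 without 1 library; its share higher was 66.5%, and 53.4% with GC correction, 47.1% with no filter, 49.2% in replicates 1 and 2 and 44.4% with 21 libraries. R679C had 69.6% higher, and 58.5% with GC correction, 48.3% with the block and 45.2% with the DESeq2 Wald test.

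In mESC, GC correction gave 2598 calls and 2898 with the block, and the block alone gave 1830. Same-numbered libraries correlated above 0.1 in 12 of 18 pairs there (median 0.369), and differently numbered ones in 12 of 36 (median -0.21). The numbers therefore pair the mESC samples only in part. Leaving out 1 library gave 819 to 1692. The interaction gave 488 with DESeq2, 704 with the block, 766 with GC correction and 1070 with both, and 167 to 371 without 1 library. The cause of these shifts was not tested.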

Other observations

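A few further values after ATRA fall outside the groups above. Zfp819 (0.71 ± 0.08) and Pml, which forms nuclear bodies (0.50 ± 0.05), were higher in A677T cells and lower there in mESC (-0.36 and -0.25). Pml had 176, 194 and 195 CPM in A677T cells and 126 to 144 CPM in the other 9 libraries. The surface enzyme gene Nt5e had 38.6, 34.3 and 38.8 CPM in A677T cells and 57.7 to 75.2 CPM in the others (-0.81 ± 0.07), with 0.12 in mESC (adjusted p = 0.335). Tbx1 (1.61 ± 0.40), at 0.923, 0.707 and 0.832 CPM in A677T cells and 0.048 to 0.553 CPM in the others, lost its call without A677T replicate 1 (adjusted p = 0.0974), 2 (0.053) or 3 (0.0625). Gata6 was higher while its endoderm partner Sox17 stood at 0.11 ± 0.11 (adjusted p = 0.619).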
